A study of Homo sapiens with 4 samples.

Results

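Integrins are the cell surface receptors that tie a cell to the matrix around it, and each is a pair of 1 alpha and 1 beta subunit. The genes described here are the 10 subunits ITGAV, ITGA2, ITGA3, ITGA5, ITGA6, ITGB1, ITGB4, ITGB5, ITGB6 and ITGB8, out of 18239 genes represented on the arrays. They were found as all rows of the deposited table whose platform annotation gave 1 of these symbols and no other, which came to 37 probe sets. A probe set is a group of short probes summarised to 1 value. Each gene is reported by its brightest probe set, that with the highest mean over the 4 arrays, and its other probe sets are given beside it. All 10 genes passed the filter on low values, a mean log2 value of at least 4.14, as did 31 of the 37 probe sets. Total RNA was measured in 2 cultured human lung cancer lines with 2 arrays each. MTAC-P is described by the labels as resistant and as obtained under mild exposure to a tyrosine kinase inhibitor (TKI), with no inhibitor, dose or parent line named. PC9, the line it is compared with, is an established lung adenocarcinoma line that carries a mutant, active EGFR. Both were grown in the same serum-containing medium, and whether the inhibitor was present at collection is not given.

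The subunits of a pair decide what it binds. Pairs of ITGAV with ITGB5, ITGB6 or ITGB8, and the pair of ITGA5 with ITGB1, recognise the RGD tripeptide found in vitronectin, fibronectin and the latency peptide of TGF-beta. ITGA2 with ITGB1 binds collagen, while ITGA3 with ITGB1 and ITGA6 with ITGB1 or ITGB4 bind laminins of the basement membrane. Bound integrins gather talin, kindlins, focal adhesion kinase and integrin-linked kinase at their tails, and so pass adhesion on to the cytoskeleton and to survival signalling, which is why they are studied in TKI resistance of lung cancer.

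Array medians over all 49386 probe sets lay between 4.85 and 4.88, and Pearson's r over the 14970 tested genes was 0.990 between the MTAC-P arrays and 0.992 between the PC9 arrays, with genes as points. The epithelial markers EPCAM, CDH1, KRT7, KRT8, KRT18 and KRT19 had means from 10.35 to 14.41 in MTAC-P and from 10.89 to 14.29 in PC9. EPCAM and CDH1, which hold epithelial cells together, differed by -0.49 and -0.54 (log2, MTAC-P minus PC9; limma adjusted p = 0.236 and 0.160), with both MTAC-P arrays below the PC9 arrays and an unadjusted p under 0.05, whereas KRT8 and KRT18 had both MTAC-P arrays above, at 0.36 and 0.12, and KRT7 and KRT19 overlapped. The lines did not overlap in 4 of the 6 markers and 2 had an unadjusted limma p under 0.05, against 53.2% and 18.9% of all tested genes. The part of the epithelial markers in the lower values of integrin subunits was not tested. The lung lineage markers NKX2-1, SFTPB, SFTPC and NAPSA had means of 5.10 or less in MTAC-P and 4.95 or less in PC9, near the dim value, so the labelled tissue was not visible in them. The tested endothelial markers had means of 5.19 or less in MTAC-P and 5.49 or less in PC9, the fibroblast markers 4.64 or less in MTAC-P and 4.98 or less in PC9, and the blood marker PTPRC lay under the filter. CD68, a blood list gene also found in other cell types, averaged 9.19 in MTAC-P and 8.95 in PC9. The 3' minus 5' log2 difference of the ACTB control probe sets, a sign of RNA integrity, was 1.51 and 1.75 on the MTAC-P arrays and 1.71 and 2.49 on the PC9 arrays. For the GAPDH control probe sets it was nearly level, at -0.090 and -0.069 on the MTAC-P arrays and -0.057 and 0.038 on the PC9 arrays.

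MTAC-P was compared with PC9 to ask which integrin subunits separate the resistant line. Of the 10 subunits, 7 had a lower mean in MTAC-P, against 46.2% of all tested genes, and 3 a higher one. In all 7 of the lower ones both MTAC-P arrays lay below both PC9 arrays, and in ITGB5 they lay above. The 7 include ITGB4, whose next brightest probe set, of nearly the same mean, went the other way. The count of lower subunits was 6 with the mean of all probe sets or quantile normalization, and 7 to 9 with 1 array left out. The widest gaps were those of ITGB6, ITGB8 and ITGAV, while ITGA3 and ITGA5 had overlapping arrays. None passed limma's adjusted p threshold of 0.05 (0 of 10), which 0.0200% of the 14970 tested genes did, and 3 of 10 had an unadjusted p under 0.05, against 18.9% of all tested genes. The lines' arrays were apart, with no overlap, in 8 of 10 subunits, against 53.2% of all tested genes, and MTAC-P lay below in 7 of 10, against 24.9%. The median log2 difference, MTAC-P minus PC9, was -0.31 over the 10 subunits and 0.031 over all tested genes. The difference between the lines was larger than the gap between duplicates of either line in 6 of 10 subunits, against 38.5% of all tested genes. With 2 arrays a line the smallest 2-sided p of an exact permutation test is 0.333, and the labels do not say that duplicates came from separate cultures, so p-values measure only the spread between these arrays. In RNA from whole cultures, fewer cells that make a transcript and less of it per cell cannot be told apart.

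**Figure D1:**
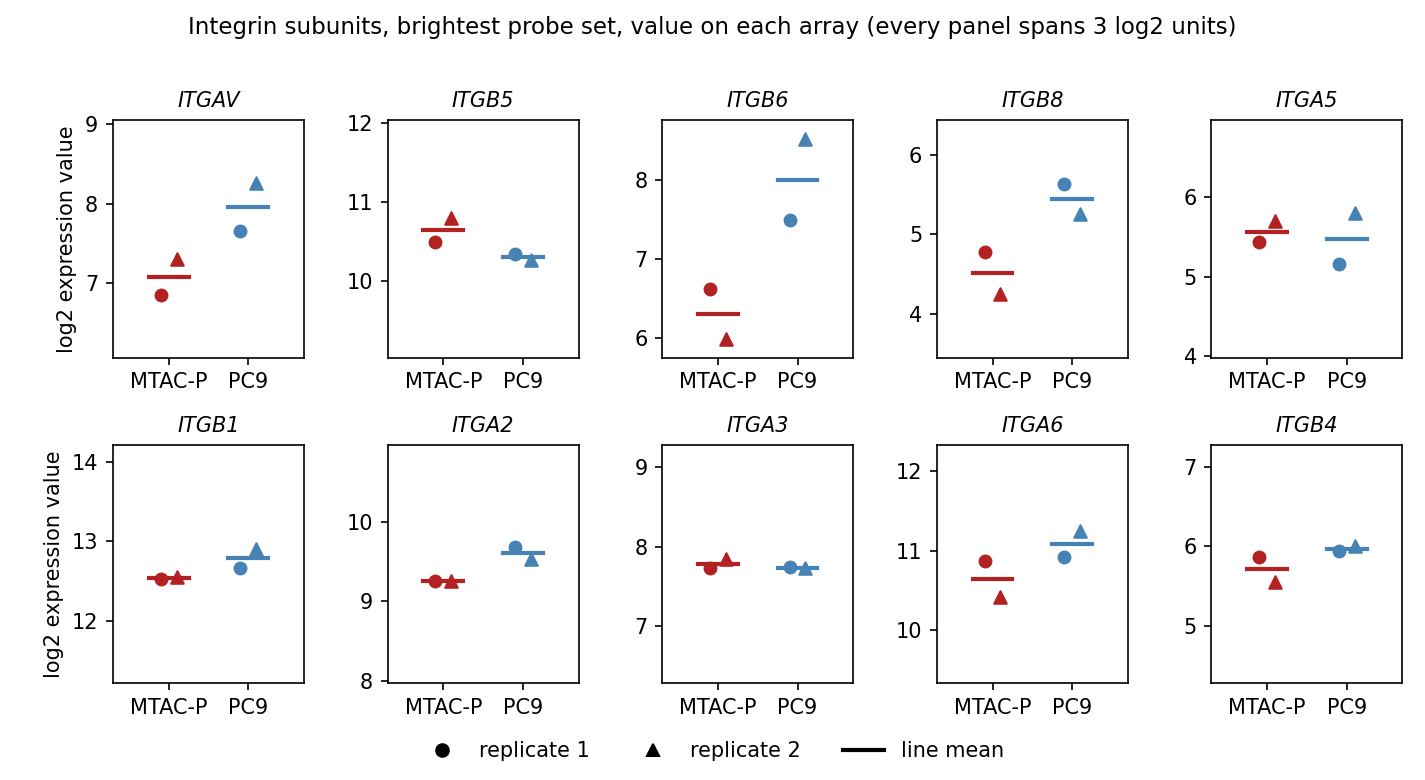
Log2 expression value of each integrin subunit's brightest probe set on the 2 MTAC-P arrays (red, left) and the 2 PC9 arrays (blue, right), with circles for replicate 1, triangles for replicate 2 and a bar at each line's mean. Both MTAC-P points lie below both PC9 points in 7 of the 10 panels, against 24.9% of all tested genes. The 7 include ITGB4, whose next brightest probe set went the other way. The widest separation is in ITGB6, with means of 6.31 in MTAC-P and 8.00 in PC9, but its other probe set differed by -0.0068 with overlapping arrays.

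ITGB6 encodes the beta subunit that pairs with ITGAV alone, is restricted to epithelia, and binds and activates latent TGF-beta. Its brightest probe set read 6.63 and 6.00 on the MTAC-P arrays, against 7.49 and 8.51 on the PC9 arrays (log2 values). Both MTAC-P values lay under both PC9 values, and the PC9 duplicates were 1.02 apart. ITGB6 averaged 6.31 ± 0.45 in MTAC-P and 8.00 ± 0.72 in PC9 (log2, SD, n = 2 each), a 3.23-fold difference. Its log2 difference of -1.69 (SE 0.37, 95% interval -2.58 to -0.80, limma adjusted p = 0.117) was lower than that of all but 0.150% of the tested genes. The other ITGB6 probe set gave 5.06 and 4.93 in MTAC-P, against 4.83 and 5.18 in PC9, a log2 difference of -0.0068 with overlapping arrays. The 2 probe sets therefore disagree on size, and the mean of both differed by -0.85. Leaving out PC9 replicate 1 brought ITGB6 past the limma threshold at a difference of -2.20, and leaving out PC9 replicate 2, the array with the highest ITGB6 value and the highest ACTB 3' minus 5' difference, gave -1.18. The part of RNA integrity in this difference was not tested.

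ITGB8, the other beta subunit of ITGAV that engages latent TGF-beta, is known for a cytoplasmic tail unlike that of the other beta subunits. Its brightest probe set read 4.77 and 4.25 in MTAC-P, against 5.64 and 5.26 in PC9 (log2 values). The second MTAC-P array was close to the dim value of 4.14, so the fold can be understated. ITGB8 averaged 4.51 ± 0.37 in MTAC-P and 5.45 ± 0.27 in PC9 (log2, SD, n = 2 each), a log2 difference of -0.94 (SE 0.23, 95% interval -1.50 to -0.37, limma adjusted p = 0.135). All 3 other ITGB8 probe sets had the same sign, at log2 differences from -0.24 to -0.20, with means near the dim value in both lines. The mean of the 4 probe sets differed by -0.40.

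ITGAV encodes the alpha subunit that ITGB5, ITGB6 and ITGB8 all need. Its brightest probe set read 6.85 and 7.30 in MTAC-P, against 7.66 and 8.26 in PC9 (log2 values). The lines did not overlap, although the higher MTAC-P array and the lower PC9 array were close. ITGAV averaged 7.08 ± 0.32 in MTAC-P and 7.96 ± 0.43 in PC9 (log2, SD, n = 2 each), a 1.84-fold difference with a log2 value of -0.88 (SE 0.26, 95% interval -1.51 to -0.26, limma adjusted p = 0.162). The 4 other ITGAV probe sets had means near the dim value, with 2 of them under it, and 2 had a negative and 2 a positive difference, from -0.51 to 0.17. The mean over all 5 ITGAV probe sets differed by -0.27, and leaving out PC9 replicate 2 gave -0.58 on the brightest.

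The promoter windows of ITGB6, ITGB8 and ITGAV are shown because these 3 subunits of RGD-binding pairs had the widest differences. The windows run from 250 bases before to 50 bases after the annotated start and come from RefSeq (GRCh38.p14), read 5' to 3' on the gene's strand. For ITGAV, which has more than 1 window, the one at the outermost start is given. Capitals mark matches on either strand to 4 motifs that were searched, and no matches overlapped in these windows. The site of AP-1, a transcription factor that responds to stress and growth signals, was searched with the letters TGAGTCA. The GC box bound by the SP and KLF factors was searched with the letters GGGCGG. The TATA box, which positions the start of transcription, was searched with the letters TATAAA, and the core of many sites of ETS factors was searched with the letters GGAAGT.
ITGB6, chr2:160200223-160200522, minus strand: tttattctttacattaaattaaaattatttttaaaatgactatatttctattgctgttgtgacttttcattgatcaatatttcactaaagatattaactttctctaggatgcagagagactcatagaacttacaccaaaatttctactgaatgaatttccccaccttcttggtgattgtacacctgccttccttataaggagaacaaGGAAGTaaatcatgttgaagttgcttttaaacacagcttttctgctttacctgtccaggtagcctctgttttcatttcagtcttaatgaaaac
ITGB8, chr7:20330650-20330949, plus strand: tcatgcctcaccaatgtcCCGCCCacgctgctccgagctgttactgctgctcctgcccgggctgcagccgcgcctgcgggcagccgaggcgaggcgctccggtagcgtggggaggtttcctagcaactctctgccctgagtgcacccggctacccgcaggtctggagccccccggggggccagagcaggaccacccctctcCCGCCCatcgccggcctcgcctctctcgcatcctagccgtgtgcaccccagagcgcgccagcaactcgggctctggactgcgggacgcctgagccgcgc
ITGAV, chr2:186589806-186590105, plus strand: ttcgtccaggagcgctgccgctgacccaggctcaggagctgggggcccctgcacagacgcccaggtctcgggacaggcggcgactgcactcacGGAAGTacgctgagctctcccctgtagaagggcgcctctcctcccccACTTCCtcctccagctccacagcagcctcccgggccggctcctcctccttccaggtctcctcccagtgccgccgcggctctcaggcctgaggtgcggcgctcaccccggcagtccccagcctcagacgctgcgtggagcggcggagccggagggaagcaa

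The ITGB6 window held 1 ETS core and none of the other motifs, and its G and C content was 31.7%, lower than in all but 1.74% of the 35116 windows of all genes. The ITGB8 window held 2 GC boxes at a G and C content of 71.7%, and the ITGAV window held 2 ETS cores at 70.7%. None of the 4 motifs was in all 3 windows. Windows of all genes held a GC box in 45.0%, an ETS core in 22.8%, a TATA box in 11.5% and an AP-1 site in 4.95%. Among the 13 windows found for 8 of the 10 subunits, a GC box was present in 9, an ETS core in 6, a TATA box in 2 and an AP-1 site in 1, the last in ITGA5. The entries of ITGA3 and ITGB4 were missing. A match describes the letters of the window and is not a bound site.

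ITGB5 encodes the subunit that makes a vitronectin receptor with ITGAV. It was the only subunit whose MTAC-P arrays both lay above the PC9 arrays, at 10.50 and 10.80 in MTAC-P, against 10.34 and 10.27 in PC9 (log2 values). Of all tested genes, 28.3% had both MTAC-P arrays above. ITGB5 had a log2 difference of 0.35 (SE 0.17, 95% interval -0.067 to 0.77, limma adjusted p = 0.327), which was 0.20 without MTAC-P replicate 2. It was measured by 1 probe set, so no second one could be compared. Among the beta partners of ITGAV, therefore, ITGB5 had a higher mean in MTAC-P while ITGB6 and ITGB8 had a lower one, and differences between subunits were not tested.

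ITGA5 encodes the alpha subunit of the main fibronectin receptor. It read 5.43 and 5.70 in MTAC-P, against 5.16 and 5.80 in PC9 (log2 values), so the MTAC-P arrays lay between the PC9 arrays. ITGA5 had a log2 difference of 0.090 (95% interval -0.50 to 0.68), which ran from -0.23 to 0.41 when 1 array was left out. A second ITGA5 probe set above the dim value, of a type whose probes can match other sequences, differed by 0.41, and the 2 dim ones by 0.051 and 0.20.

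ITGB1 is the common partner of ITGA2, ITGA3, ITGA5 and ITGA6, and also pairs with ITGAV. It read 12.52 and 12.55 in MTAC-P, against 12.66 and 12.90 in PC9 (log2 values), with both MTAC-P arrays below. The log2 difference of ITGB1 was -0.24 (SE 0.16, 95% interval -0.64 to 0.15, limma adjusted p = 0.454), a 1.18-fold difference, and leaving out PC9 replicate 2 gave -0.13. Its 3 other probe sets above the dim value had the same sign, from -0.28 to -0.090, and the dim one differed by 0.038. ITGB1 was thus among the subunits whose bright probe sets agreed in sign at a small size.

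ITGA2 encodes the collagen-binding alpha subunit. Its probe sets agreed closely. The brightest read 9.25 and 9.26 in MTAC-P, against 9.69 and 9.53 in PC9, and the other read 9.19 and 9.09 in MTAC-P, against 9.54 and 9.46 in PC9 (log2 values). The MTAC-P arrays lay below the PC9 arrays on both, at log2 differences of -0.35 and -0.36. ITGA2 on its brightest probe set had an interval from -0.73 to 0.025 (SE 0.16, limma adjusted p = 0.289), and leaving out 1 array moved it between -0.43 and -0.27. It was the subunit with the smallest spread between probe sets among those with more than 1.

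Of the laminin-binding subunits, ITGA6 had the lowest difference. Its brightest probe set read 10.87 and 10.41 in MTAC-P, against 10.91 and 11.25 in PC9 (log2 values). The lines did not overlap, but the replicate 1 arrays were almost level. ITGA6 had a log2 difference of -0.44 (SE 0.22, 95% interval -0.97 to 0.087, limma adjusted p = 0.329), -0.21 when MTAC-P replicate 2 was left out and -0.67 when MTAC-P replicate 1 was. Its other probe sets differed by -0.46 and -0.26, so all 3 had the same sign.

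ITGA3 encodes the other laminin-binding alpha subunit of epithelia. It read 7.73 and 7.84 in MTAC-P, against 7.75 and 7.72 in PC9 (log2 values), and the arrays overlapped. Its log2 difference was 0.047, with a 95% interval from -0.32 to 0.42, and its other probe sets, both with means near the dim value, differed by -0.19 and 0.22.

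ITGB4 pairs with ITGA6 and anchors hemidesmosomes, the plaques that fix epithelial cells to the basement membrane. Its brightest probe set read 5.87 and 5.56 in MTAC-P, against 5.94 and 6.00 in PC9, a log2 difference of -0.26 (SE 0.17, limma adjusted p = 0.454), which was -0.10 without MTAC-P replicate 2. The next one, with nearly the same 4-array mean (5.84 for both), read 6.10 and 5.85 in MTAC-P, against 5.67 and 5.73 in PC9, a log2 difference of 0.27. MTAC-P and PC9 arrays did not overlap on either, and the directions were opposite. Of the 6 other ITGB4 probe sets above the dim value, 1 had the sign of the brightest, and the 8 probe sets ranged from -0.26 to 0.55. The direction of ITGB4 therefore rested on the choice of probe set, and it turned under quantile normalization (0.30) and with the mean of all probe sets (0.16).

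**Figure D2:**
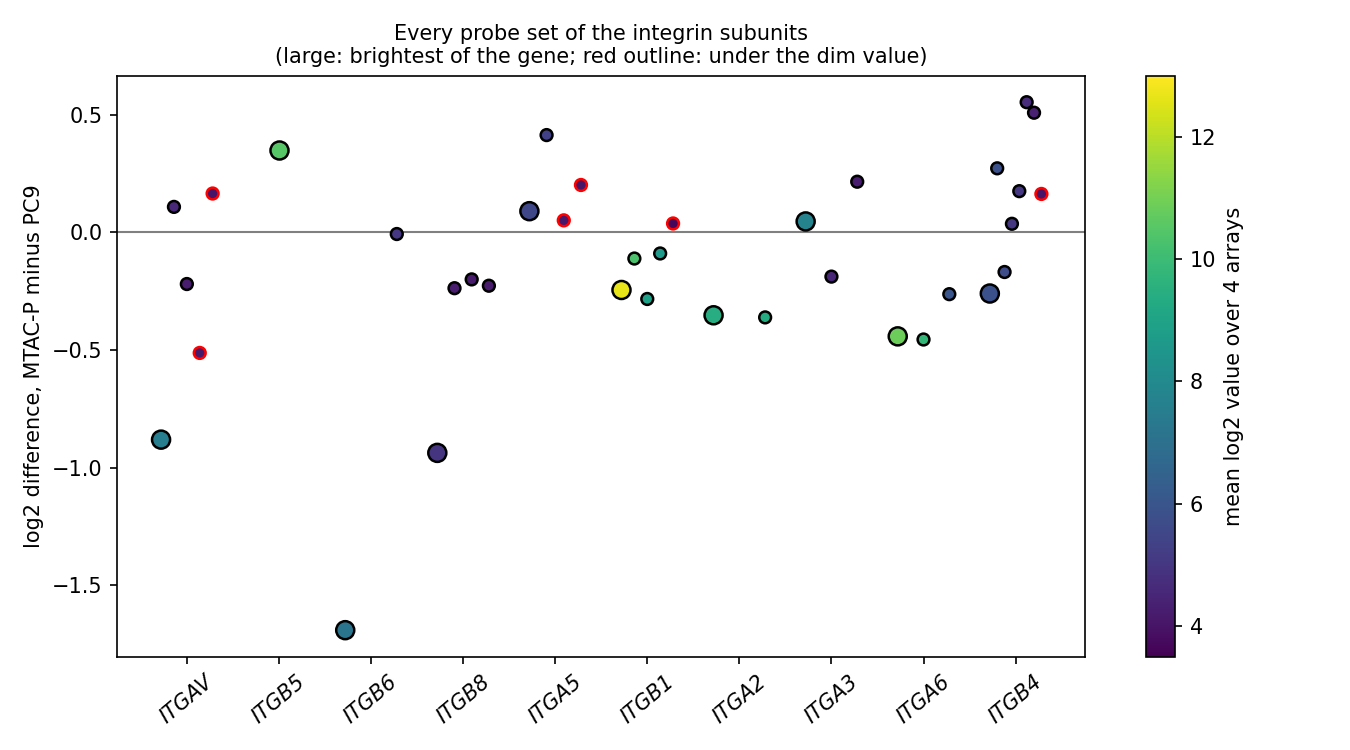
Log2 difference, MTAC-P minus PC9, of all 37 integrin probe sets by gene, coloured by the mean log2 value over 4 arrays, with a large point for the brightest of each gene and a red outline for those under the dim value of 4.14. The sets of ITGA2, ITGA6 and ITGB8 all lie below 0, whereas those of ITGB4 spread from -0.26 to 0.55.

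Over the 31 probe sets above the dim value, 20 had a lower and 11 a higher mean in MTAC-P, with a median difference of -0.19, against 0.029 over the 36979 tested probe sets. In a limma fit of all these probe sets 0 of the 31 passed, as did 0.00270% of all tested probe sets, and 5 had an unadjusted p under 0.05, against 18.0%. Those 5 were the brightest sets of ITGB6, ITGB8 and ITGAV, lower in MTAC-P, and ITGB4 sets at 0.55 and 0.51, higher in MTAC-P. The lines did not overlap in 20 of the 31, against 51.6% of all tested probe sets, and MTAC-P lay below on both arrays in 14 of the 31, against 23.8%. Sets of a gene share its RNA and are not independent.

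**Figure D3:**
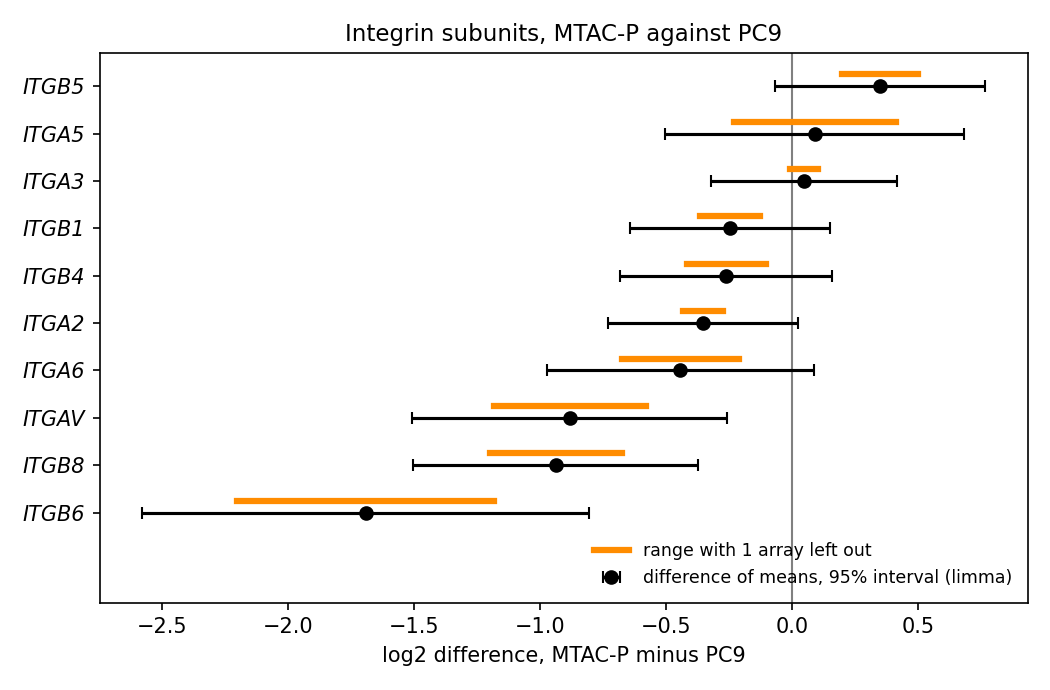
Log2 difference, MTAC-P minus PC9, of the 10 integrin subunits on their brightest probe set with limma's 95% interval (black) and the range over the 4 fits that each leave out 1 array (orange). The intervals of ITGAV, ITGB8 and ITGB6 lie below 0, from -1.51 to -0.26, -1.50 to -0.37 and -2.58 to -0.80.

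The remaining integrin subunits, mostly those of blood, muscle and connective tissue cells, served as a comparison within the family. All 16 were on the arrays and 11 passed the filter, of which 3 had a higher and 8 a lower mean in MTAC-P, with a median of -0.027. Of these 11, 0 passed the limma test and 0 had an unadjusted p under 0.05, against 0.0200% and 18.9% of all tested genes. The lowest were ITGB7 at -0.32 and ITGB2 at -0.23, and the highest ITGAX at 0.38 and ITGA10 at 0.25 (log2 differences). The other ITGB7 probe set differed by 0.20, and the ITGAX probe sets ranged from -0.11 to 0.38. Leaving out 1 array brought ITGB2 to -0.15, ITGAX to 0.19 and ITGA10 to 0.10 at the nearest to 0. MTAC-P and PC9 arrays did not overlap in 4 of the 11, a smaller share than the 53.2% of all tested genes. No line mean of ITGB7, ITGB2, ITGAX or ITGA10 was above 5.44, so these genes lay near the dim value.

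Proteins that switch integrins on or off at their tails had 5 higher and 5 lower means among 10 tested genes, with a median of -0.017. TLN1, which encodes talin, read 5.88 and 6.31 in MTAC-P, against 5.83 and 5.63 in PC9, a log2 difference of 0.36 (SE 0.20), which was 0.15 without MTAC-P replicate 2. FERMT1, the epithelial kindlin, read 10.97 and 10.71 in MTAC-P, against 10.43 and 10.61 in PC9, a log2 difference of 0.32 (SE 0.17, limma adjusted p = 0.368). It was 0.19 without MTAC-P replicate 1, and the FERMT1 probe sets ranged from -0.068 to 0.86. FERMT2, the kindlin of many other cell types, read 10.68 and 10.16 in MTAC-P, against 11.02 and 10.98 in PC9, a log2 difference of -0.58 (SE 0.21, limma adjusted p = 0.222). It was -0.32 without MTAC-P replicate 2, and the FERMT2 probe sets ranged from -0.58 to 0.10. Neither kindlin therefore had 1 sign on all its probe sets. RAP1B, a small GTPase that recruits talin, differed by -0.43, and by -0.22 without MTAC-P replicate 2. The RAP1B probe sets ranged from -0.43 to 0.019. None of the 10 passed the limma test (0 of 10) and 1, FERMT2, had an unadjusted p under 0.05, against 18.9% of all tested genes.

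Focal adhesion adaptors and kinases had 15 higher and 7 lower means in MTAC-P among 22 tested genes, with a median log2 difference of 0.22, against 0.031 over all tested genes. Both MTAC-P arrays lay above both PC9 arrays in 13 of the 22, against 28.3% of all tested genes. CRKL, an adaptor that joins focal adhesions to small GTPases, read 9.58 and 9.39 in MTAC-P, against 8.85 and 8.59 in PC9, a log2 difference of 0.76 (SE 0.17, limma adjusted p = 0.124), and its probe sets ranged from 0.0085 to 0.76. ILK, the integrin-linked kinase that binds beta tails, read 7.23 and 7.09 in MTAC-P, against 6.74 and 6.28 in PC9, a log2 difference of 0.65 (SE 0.20, limma adjusted p = 0.178). PTK2, the focal adhesion kinase, had the opposite sign, with 10.05 and 10.06 in MTAC-P, against 10.49 and 10.61 in PC9, a log2 difference of -0.50 (SE 0.15, limma adjusted p = 0.175). NEDD9, a scaffold of that kinase, differed by -0.60 (SE 0.21), and by -0.37 without PC9 replicate 1. ILK differed by 0.42 without PC9 replicate 2. ILK and PTK2 thus each had no overlap between lines, with opposite signs. Of the 22 genes, 0 passed the limma test and 4, 2 higher and 2 lower, had an unadjusted p under 0.05, close to the 18.9% of all tested genes.

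Hemidesmosome genes and tetraspanins, membrane proteins that associate with laminin-binding integrins, had 4 higher and 5 lower means among 9 tested genes. DST, which encodes the plakin that links ITGB4 to keratins in hemidesmosomes, read 5.87 and 4.70 in MTAC-P, against 7.03 and 6.25 in PC9. Its log2 difference was -1.36 (SE 0.42, limma adjusted p = 0.175), and it was -0.78 without MTAC-P replicate 2. Its probe sets ranged from -1.36 to 0.065. PLEC, the other plakin of hemidesmosomes, differed by 0.078 and CD151, the tetraspanin of laminin receptors, by 0.15, both with overlapping arrays and a sign that turned when PC9 replicate 1 was left out. CD82 differed by -0.55, also with overlapping arrays, and by -0.14 without PC9 replicate 2 and -0.27 without MTAC-P replicate 2. Of the 9 genes, 0 passed the limma test and 2, DST and the tetraspanin CD9, had an unadjusted p under 0.05, near the 18.9% of all tested genes. Both were lower in MTAC-P, CD9 at a log2 difference of -0.54 (SE 0.15, limma adjusted p = 0.155) with no overlap between the lines.

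Matrix ligands of these receptors had 11 higher and 4 lower means among 15 tested genes, with a median log2 difference of 0.12. SPP1, which encodes osteopontin, an RGD-containing ligand of ITGAV pairs, had the lowest log2 difference of all listed genes. It read 5.83 and 5.17 in MTAC-P, against 7.39 and 7.46 in PC9, a 3.79-fold difference with a log2 value of -1.92 (SE 0.24, limma adjusted p = 0.0971). Both MTAC-P arrays lay well under the PC9 arrays, all SPP1 probe sets had the same sign, from -1.92 to -0.89, and the gene passed the limma threshold when PC9 replicate 1 was left out (-1.96). FN1, which encodes fibronectin, read 11.58 and 12.07 in MTAC-P, against 10.60 and 11.97 in PC9. Its log2 difference of 0.54 (SE 0.43) came with overlapping arrays and was -0.15 without PC9 replicate 1. With all 4 arrays the 8 FN1 probe sets had the same sign, from 0.54 to 0.96. COL4A2, a collagen chain of basement membranes, differed by 0.51 (SE 0.19), or 0.33 without MTAC-P replicate 2. THBS1, which encodes thrombospondin, differed by -0.36 with overlapping arrays, and its probe sets ranged from -0.36 to 0.17. Of the 15 genes, 0 passed the limma test and 3, 2 higher and 1 lower, had an unadjusted p under 0.05, near the 18.9% of all tested genes.

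The latent TGF-beta complex is the ligand that ITGB6 and ITGB8 pairs open. Among 11 tested genes of this list 5 had a higher and 6 a lower mean in MTAC-P, with a median of -0.19. LTBP1, which tethers latent TGF-beta to the matrix and is needed for its activation by the ITGB6 pair, read 5.17 and 5.82 in MTAC-P, against 6.26 and 7.19 in PC9, a log2 difference of -1.23 (SE 0.35, limma adjusted p = 0.158). Leaving out PC9 replicate 2, the array with the highest ACTB 3' minus 5' difference, gave -0.76, and the LTBP1 probe sets ranged from -1.23 to -0.041. LTBP2, a relative that does not bind latent TGF-beta, read 10.51 and 10.55 in MTAC-P, against 9.71 and 10.15 in PC9, a log2 difference of 0.60 (SE 0.19), which was 0.38 without PC9 replicate 1. TGFB1, the cytokine itself, read 5.93 and 6.00 in MTAC-P, against 5.54 and 5.26 in PC9, a log2 difference of 0.56 (SE 0.17). TGFBR1, its type I receptor, differed by -0.83 (SE 0.16, limma adjusted p = 0.111), but its probe sets ranged from -0.83 to 0.42. Over the whole list MTAC-P and PC9 arrays did not overlap in 6 of 11 genes, close to the 53.2% of all tested genes. Of the 11 genes, 0 passed the limma test and 4, 2 higher and 2 lower, had an unadjusted p under 0.05, against 18.9% of all tested genes.

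Genes that carry integrins through endosomes had 4 higher and 8 lower means among 12 tested genes, with a median log2 difference of -0.062. RAB5A, the GTPase of early endosomes, read 9.73 and 9.47 in MTAC-P, against 10.26 and 10.27 in PC9, a log2 difference of -0.67 (SE 0.17, limma adjusted p = 0.133). VPS35, a retromer subunit, differed by -0.39, RAB25, which binds the ITGB1 tail and recycles its pair with ITGA5, by 0.24, and SNX17, which spares ITGB1 from degradation, by 0.20. VPS35 differed by -0.26 without MTAC-P replicate 2. Over the whole list the lines did not overlap in 7 of 12 genes, near the 53.2% of all tested genes. Of the 12 genes, 0 passed the limma test and 1, RAB5A, had an unadjusted p under 0.05, a smaller share than the 18.9% of all tested genes.

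**Figure D4:**
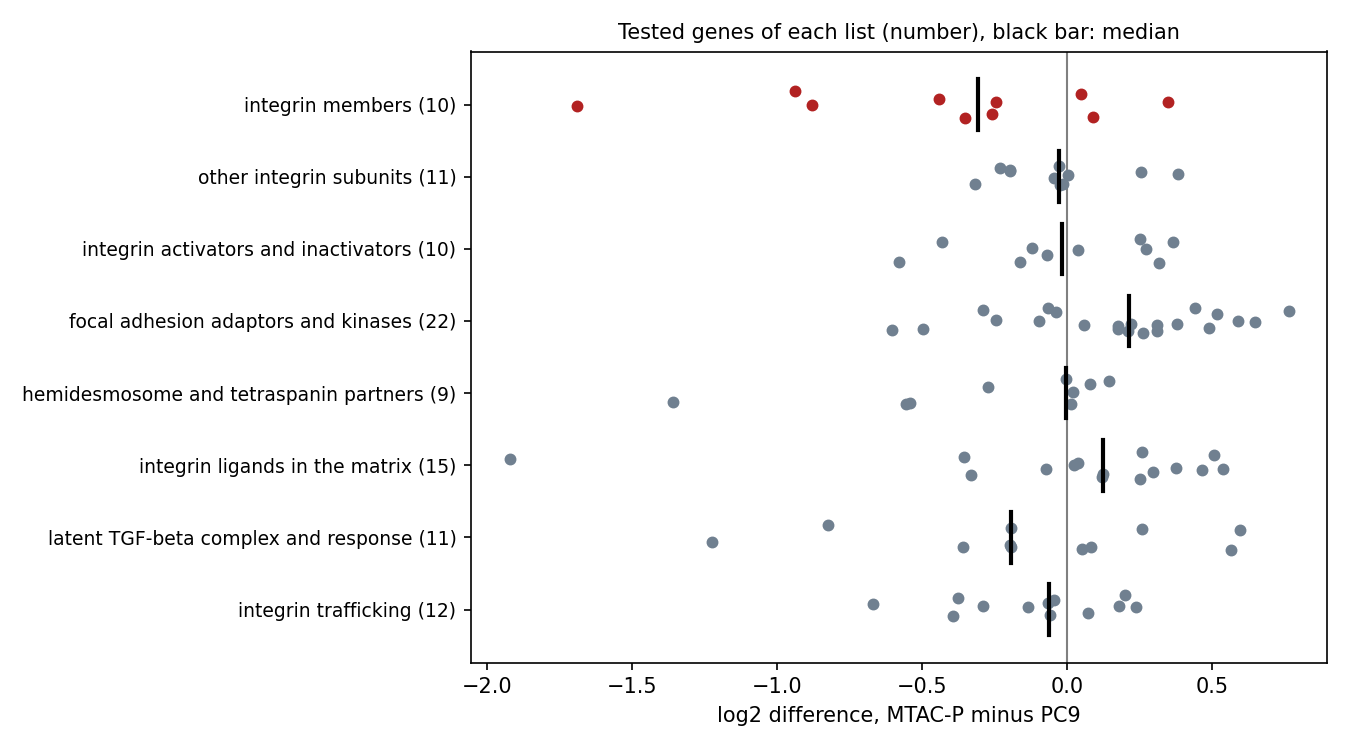
Log2 difference, MTAC-P minus PC9, of the tested genes of the 10 integrin subunits (red) and of 7 related lists (grey), with a bar at each list's median. The integrin median is -0.31 and that of the focal adhesion list 0.22. SPP1 is the leftmost point at -1.92.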

How the data were processed

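Total RNA of 2 MTAC-P and 2 PC9 samples was labelled with a one-colour Agilent kit, per the labels' protocols, and Agilent Feature Extraction 10.7 is named in the submitters' processing notes. The probe set names follow Affymetrix conventions, and how the 2 relate is not given in the sources used here. Each probe set has 1 deposited log2 value for each array. Its scale was taken from the range, 3.32 to 14.63, and background correction, normalization and summarization are not given in the sources used here. The table has no detection calls, so no gene was called present or absent. The number of arrays, 2 for each line, limits the precision.

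Of 49386 probe sets, 93 were controls, 45253 had 1 symbol in GEO's platform annotation, 1327 several and 2713 none; only those with 1 symbol were used for genes. Symbols were updated by gene identifier to GRCh38.p14. By their names, the brightest probe sets of SPP1, ITGAX, CD9, CD82, CD151 and SNX17 are of the type whose probes can match other sequences. Each gene took its brightest probe set, and 14970 of 18239 genes with a mean at or above the 25th percentile of all probe sets (4.14) were tested with limma 3.58.1 in R 4.3.3 (lmFit, eBayes, 2-sided, Benjamini-Hochberg over all tested genes). A second limma fit took all 36979 probe sets above that value that were not controls. Both fits used all 4 arrays. The limma step was also run on simulated data with spreads drawn from its own prior. That check required recovery only of changes larger than any subunit difference, so it does not show how often smaller ones are found. The subunits, the related lists and the tests were chosen with earlier results of these data known. All 10 subunits are named, with the 2 highest and 2 lowest tested genes of each related list and TLN1, PTK2, ILK, FERMT1, CD151, TGFB1 and FN1. CD9 is also named, for its unadjusted p. The 15 alternatives covered normalization, filter, probe set choice, prior variance, a pseudocount of 16, the replicate number as a block and leaving out each array. Figures were drawn with matplotlib 3.10.9.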

Additional observations from a re-analysis of the deposited data

How the results depend on the processing

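Under the 15 alternatives no subunit passed limma's adjusted p threshold except in 2 settings. With the replicate number as a block (replicate block), 3 subunits passed, ITGB6, ITGB8 and ITGAV, as did 3 integrin probe sets, and 2079 of all 14970 genes. The labels do not say that equal numbers mark a shared culture or day, and there are 2 pairs. Deviations of equally numbered arrays correlated at 0.28 over genes. In that fit limma's prior counted for 29.97 degrees of freedom against 1 from the arrays, compared with 4.38 against 2 without the block, so each gene's own spread had little weight. Leaving out 1 array gave 0 to 1 subunits, 0 to 1 integrin probe sets and 0 to 1 genes of the related lists past the threshold, the 1 being ITGB6 or SPP1 without PC9 replicate 1. Over all genes 3 passed, 77 with a variance trend, 68 without PC9 replicate 1, 4 without PC9 replicate 2, 1 with the 50th percentile filter or the pseudocount, and 0 with either mean of probe sets, in the unmoderated test and without either MTAC-P replicate. The ranges of the adjusted p over the alternatives were 1.03e-05 to 0.481 for ITGB6, 0.000740 to 0.477 for ITGB8 and 0.00137 to 0.511 for ITGAV. The sign of ITGB4 turned with the mean of all its probe sets (0.16), the mean of those above the dim value (0.16) and quantile normalization (0.30, where another probe set became the brightest). Leaving out 1 array turned the sign of ITGA3 (-0.0092 to 0.10), ITGA5 (-0.23 to 0.41), CD151 (-0.020 to 0.31), FN1 (-0.15 to 1.23), PLEC (-0.14 to 0.30) and THBS1 (-0.94 to 0.22); the cause was not tested. The direction of ITGAV, ITGA2, ITGA6, ITGB1, ITGB5, ITGB6 and ITGB8 was the same in all 15.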

Other observations

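Of the subunits, ITGB6, ITGA6 and ITGAV lie on chromosome 2, where 53.5% of 953 tested genes had a lower mean in MTAC-P, against 46.2% of all tested genes. The nearest tested genes on either side of each subunit, in the gene order of GRCh38.p14, were read after the subunits' values were known. Those of ITGAV were ZC3H15 at -0.73 and FAM171B at -0.75 (log2 differences, MTAC-P minus PC9), both with MTAC-P arrays below the PC9 arrays, as for ITGAV at -0.88. Of all tested genes, 24.9% had both MTAC-P arrays below. The neighbours of ITGB6 were PLA2R1 at 0.0052, with overlapping arrays, and RBMS1 at -0.55. Those of ITGA6 were DLX2 at 0.16, with overlapping arrays, and PDK1 at -0.16. Those of ITGB8 were MACC1, a regulator of MET, at -1.15, and ABCB5, a drug transporter, at 0.51. Those of ITGB4 were SAP30BP at 0.32 and GALK1 at 0.53, whereas ITGB4 itself had no settled sign. Neighbours of the other subunits are not given here.

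The 3 tested genes whose values across the 4 arrays were closest in shape to ITGB6, by the root mean square distance between profiles centred on their means, were MALAT1 (0.053), NCCRP1 (0.063) and NUCB2 (0.097, log2 units). MALAT1, a nuclear long noncoding RNA, read 7.41 and 6.80 in MTAC-P, against 8.41 and 9.32 in PC9. As in ITGB6, PC9 replicate 2 was the highest array and MTAC-P replicate 2 the lowest in all 3. With 4 arrays and 14970 genes, close profiles are easily found, so this is a description of these arrays.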
